A study of Mus musculus with 12 samples.

Results

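The miR-29 family of the mouse cortex is described here from its 4 precursors, mmu-mir-29a, mmu-mir-29b-1, mmu-mir-29b-2 and mmu-mir-29c. They were taken by name from the 589 miRNA precursors of the normalized table, and all 4 are listed in it. Of these 4, 3 had a value above 0 in at least 1 library, as did 324 of the 589 precursors, and mmu-mir-29b-1 was listed at 0 in all 12 libraries.

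Cortical small RNA was profiled to ask how long-term alcohol drinking changes cortical miRNAs, and whether this depends on the innate immune receptor TLR4. Female mice with a C57BL/6J background were 7 weeks old at the start. WT mice drank water (WT) or water with 10% (v/v) ethanol for 5 months (WT + EtOH), and mice that lack TLR4 in the whole body drank water (TLR4-KO) or the same ethanol (TLR4-KO + EtOH). All groups ate a solid diet. Each group had 3 libraries, and each library was made from the pooled RNA of 3 mice, so that the spread within a group is between pools. WT and TLR4-KO mice came from different sources, and the effect of the genotype and that of the source cannot be told apart. The libraries hold small RNA, in which the loss of Tlr4 mRNA was not checked.

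The miR-29 miRNAs are named for a shared seed, the bases near the 5′ end that pair with target mRNAs. They are known to repress mRNAs of collagens and other extracellular matrix proteins, of the de novo DNA methyltransferases and, in neurons, of several pro-apoptotic BH3-only proteins. In the brain they rise as neurons mature and are found in astrocytes as well. The dominant product of each hairpin is the 3p arm. The 3p sequences are shown because the whole family rests on them, with the seed (bases 2 to 8) in capitals (RefSeq, GRCm38.p6):
miR-29a-3p: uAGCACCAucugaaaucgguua
miR-29b-3p: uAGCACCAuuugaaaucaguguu
miR-29c-3p: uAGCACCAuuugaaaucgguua

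The seed AGCACCA was found in 3 of the 1674 distinct mature mouse sequences of RefSeq, and these 3 are the ones above. Counting positions from 1 at the 5′ end, miR-29a-3p and miR-29c-3p differed by 1 base, C10U. From miR-29a-3p to miR-29b-3p there were 4 substitutions over the first 22 bases, C10U, G18A, U21G and A22U, and miR-29b-3p is 1 base longer (23 against 22). Its last 6 bases, AGUGUU, are known as a signal that takes miR-29b to the nucleus. They ended 2 of the 1674 mature sequences (0.119%), miR-29b-3p and miR-92b-5p.

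The 5p arms are shown because, of the mature arms, they alone tell mmu-mir-29b-1 and mmu-mir-29b-2 apart, with bases 2 to 8 in capitals:
miR-29a-5p: aCUGAUUUcuuuugguguucag
miR-29b-1-5p: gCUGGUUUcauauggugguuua
miR-29b-2-5p: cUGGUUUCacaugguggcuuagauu
miR-29c-5p: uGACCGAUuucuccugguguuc

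No pair of these 5p arms had the same bases 2 to 8. Those of miR-29b-1-5p and miR-29b-2-5p come from the same run of bases, shifted by 1 base. The 3p arm of mmu-mir-29b-1 was identical to that of mmu-mir-29b-2 over all 23 bases, and reads of miR-29b-3p cannot be assigned to 1 of the 2 hairpins from their sequence.

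The 4 hairpins form 2 pairs. On chromosome 6, on the minus strand of GRCm38, the hairpin of mmu-mir-29a (chr6:31062660-31062747) and that of mmu-mir-29b-1 (chr6:31063023-31063093) were 275 bases apart. In GENCODE M21 the hairpin of mmu-mir-29a lay in no other gene, and that of mmu-mir-29b-1 shared 2 bases with an exon of the lincRNA Gm27019. On chromosome 1, on the plus strand, mmu-mir-29b-2 (chr1:195037040-195037120) and mmu-mir-29c (chr1:195037547-195037634) were 426 bases apart. Both lay in 1 exon of the non-coding transcript A330023F24Rik, and opposite to an exon and UTR of Cd46, a complement regulator encoded on the other strand.

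The values of the table are a score that the authors obtained by normalizing between libraries, and the score is neither a count nor a logarithm with a known base. The score had the same highest value (135) in each library. The study's methods name Trimmed Mean of M values for the raw counts, and how the score was made from these is not stated. Differences are therefore given in score units, with no fold change. The number of precursors above 0 ran from 216 to 270 among the libraries, and the lowest value above 0 from 1.25 to 14.1. A 0 is a listed value and does not show that a miRNA was absent, since mmu-mir-23a and mmu-mir-23b, which are expressed in most tissues, were also listed at 0 in every library. The read depth behind each value is not given in the table.

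Of the miR-29 precursors, mmu-mir-29c had the highest score and mmu-mir-29a the lowest of the 3 that were measured. Over the 12 libraries the mean score was 23.0 for mmu-mir-29c, 17.3 for mmu-mir-29b-2 and 5.06 for mmu-mir-29a. Among the 324 precursors above 0 in any library these means ranked 178, 195 and 253, in the lower part of the list. Within single libraries, mmu-mir-29c was above mmu-mir-29b-2 in 8, equal to it and above 0 in 2, and below it in 1, WT + EtOH replicate 1, and in the remaining library both were at 0. mmu-mir-29c was above mmu-mir-29a in 11 libraries, and mmu-mir-29b-2 was above mmu-mir-29a in 10 and equal to it in 1. The ranges of mmu-mir-29c and mmu-mir-29b-2 overlapped or met in WT, WT + EtOH and TLR4-KO, whereas in TLR4-KO + EtOH each score of mmu-mir-29c (24.2 to 27.7) was above each of mmu-mir-29b-2 (11.0 to 19.4). In the WT and WT + EtOH groups mmu-mir-29a lay below both in each library. The table does not state whether the score is per length. The 3p arms differ in length by at most 1 base.

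The precursor of miR-29a was listed at 0 in 5 of the 12 libraries and was at one of the 2 lowest levels above 0 in 5 others. In WT its score was 4.20, 4.23 and 5.23 in replicates 1, 2 and 3. In WT + EtOH it was listed at 0 in all 3 libraries. In TLR4-KO it was 14.8, 11.3 and 0, and in TLR4-KO + EtOH 13.7, 7.27 and 0. The 3 WT values lay above all 3 WT + EtOH values, whereas the 2 TLR4-KO groups each held values above those of WT together with a 0.

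These scores were read against the lowest score above 0 of the same library. In WT replicate 2 (4.23) and in TLR4-KO replicate 2 (11.3) the score of mmu-mir-29a was the lowest one above 0, and it was shared with 14 and 15 other precursors. In WT replicates 1 and 3 and in TLR4-KO + EtOH replicate 2 it was the second lowest level, shared with 28, 24 and 15 others. Thus the scores 4.23 and 11.3 both stood for the lowest level detected in their library. Only in TLR4-KO replicate 1 (14.8) and TLR4-KO + EtOH replicate 1 (13.7) was mmu-mir-29a further up, at the eighth lowest level, above 17.6% and 16.0% of the precursors detected in those libraries.

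mmu-mir-29b-2, whose 3p arm is miR-29b-3p, was above 0 in 11 of the 12 libraries. Its score was 17.6, 14.3 and 17.6 in WT (16.5 ± 1.88, SD, n = 3). In WT + EtOH it was 25.4, 24.0 and 21.5 (23.6 ± 1.99, SD, n = 3), and each of these values was higher than each of the WT values. In TLR4-KO the values were 14.8, 27.7 and 0, and they spanned those of all the other groups. In TLR4-KO + EtOH they were 19.4, 14.5 and 11.0 (15.0 ± 4.26, SD, n = 3), each lower than each WT + EtOH value and overlapping those of WT.

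mmu-mir-29c had the highest single score of the family, 34.1. In WT its score was 27.0, 21.5 and 17.6 (22.0 ± 4.69, SD, n = 3), and in WT + EtOH 16.0, 24.0 and 27.1 (22.3 ± 5.73, SD, n = 3). These 2 groups covered almost the same range. In TLR4-KO the values were 34.1, 29.6 and 0, and the first 2 lay above all WT values. In TLR4-KO + EtOH they were 27.7, 27.7 and 24.2 (26.5 ± 2.04, SD, n = 3), the smallest spread of mmu-mir-29c in any group.

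**Figure D1:**
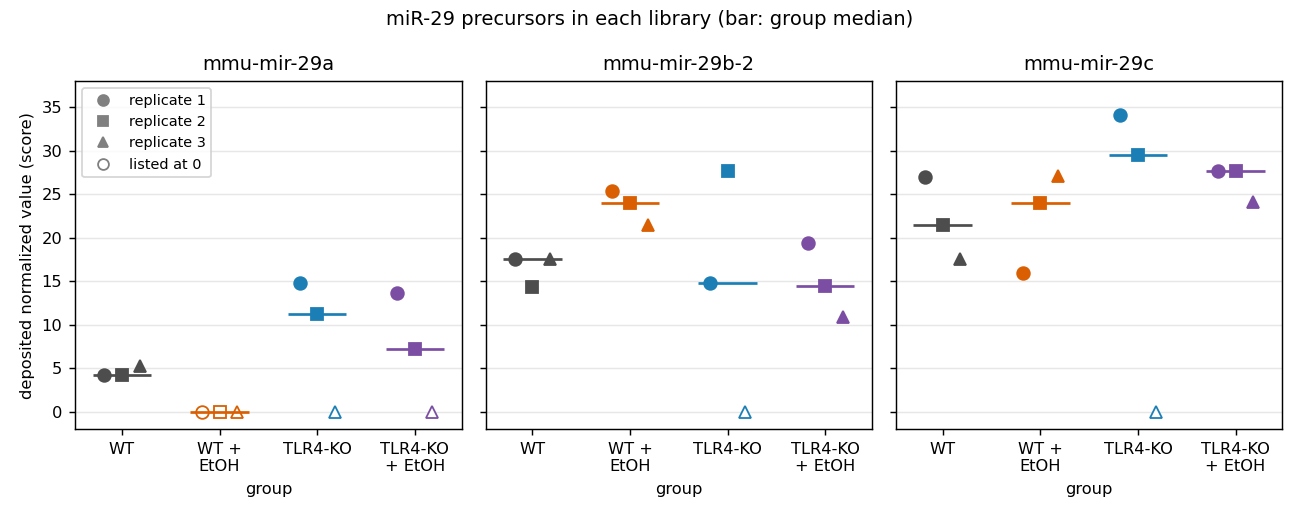
Deposited score (y axis, score units) of mmu-mir-29a, mmu-mir-29b-2 and mmu-mir-29c in the 3 libraries of each of the 4 groups (x axis), with 1 symbol per library, open symbols for values listed at 0 and a bar at the group median. The WT + EtOH values of mmu-mir-29b-2 (21.5 to 25.4) sit above its WT values (14.3 to 17.6), those of mmu-mir-29a are all at 0, and TLR4-KO replicate 3 is at 0 in all 3 panels.

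TLR4-KO replicate 3 stood apart for the whole family, because mmu-mir-29a, mmu-mir-29b-2 and mmu-mir-29c were all listed at 0 in it. It also had the fewest precursors above 0 (216) and the highest detection limit, taken as the lowest score above 0 of a library (14.1). Both mmu-mir-29b-2 and mmu-mir-29c were among 8 precursors of the table that were at 0 in exactly 1 library, and for 6 of these 8 that library was TLR4-KO replicate 3. Without it the mean of the TLR4-KO group was 13.0 in place of 8.70 for mmu-mir-29a, 21.2 in place of 14.2 for mmu-mir-29b-2 and 31.8 in place of 21.2 for mmu-mir-29c. Whether these zeros come from the small number of precursors detected in this library was not tested. Each comparison of TLR4-KO values is therefore given with and without this library.

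**Figure D2:**
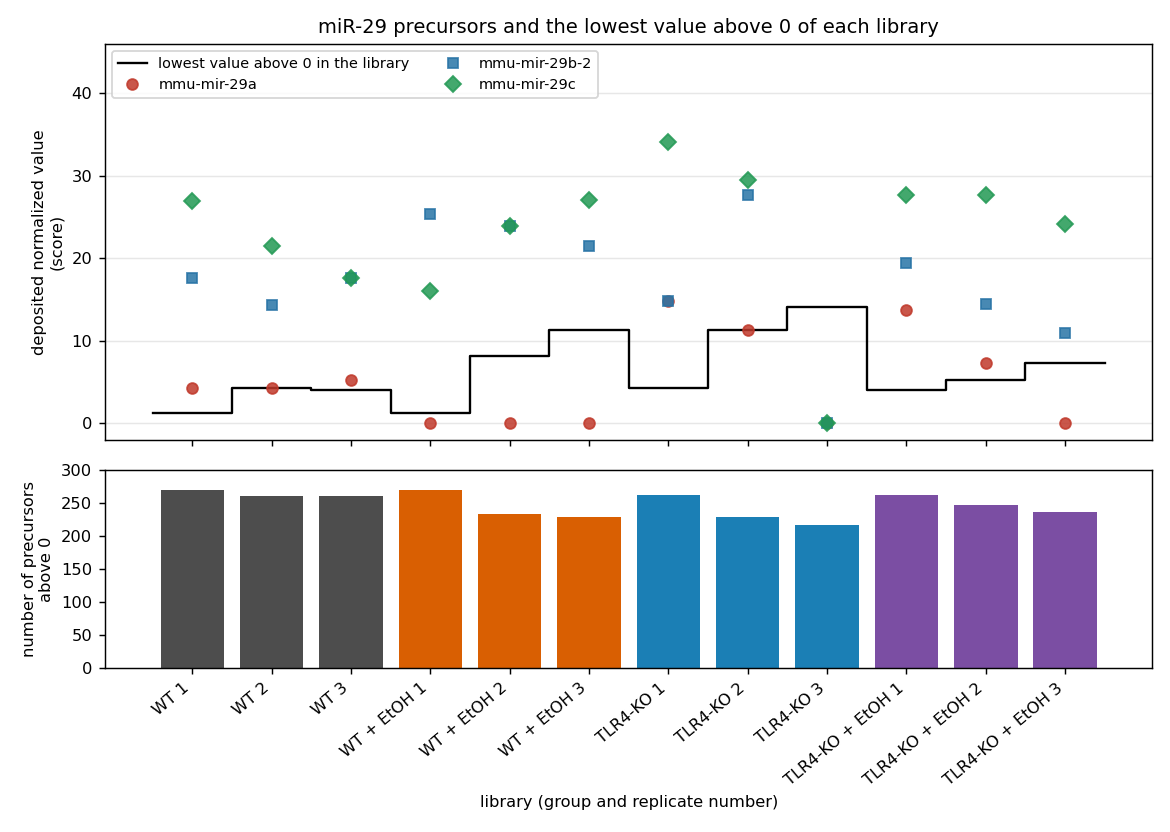
Upper panel, score (y axis, score units) of the 3 measured miR-29 precursors (symbols) in each of the 12 libraries (x axis) with the lowest score above 0 of that library as a black line; lower panel, number of precursors above 0 in each library, coloured by group. mmu-mir-29a sits on the line in WT replicate 2 and TLR4-KO replicate 2, and the line is highest (14.1) and the bar lowest (216) in TLR4-KO replicate 3.

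In WT mice the ethanol and water groups did not overlap for mmu-mir-29b-2, which was higher with ethanol, or for mmu-mir-29a, which was lower, and they overlapped for mmu-mir-29c. mmu-mir-29b-2 was 7.10 score units higher in WT + EtOH than in WT (SE 5.90, 95% interval -6.43 to 20.6), and mmu-mir-29a was 4.56 units lower, with a difference of -4.56 (SE 4.15, 95% interval -14.1 to 4.94). mmu-mir-29c differed by 0.32 units (SE 8.03, 95% interval -18.1 to 18.7). None of these passed limma with Benjamini-Hochberg adjustment over the 589 precursors (adjusted p = 1 for each of the 3, unadjusted p = 0.263, 0.303 and 0.969), where 1.7% of all precursors did. The exact two-sided permutation test gave p = 0.1 for mmu-mir-29b-2 and mmu-mir-29a, the smallest p that 3 against 3 libraries allow, and p = 0.9 for mmu-mir-29c.

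Groups that do not overlap were common in this comparison. Of the 324 precursors above 0 in any library, 43 (13.3%) had every WT + EtOH score above every WT score and 56 (17.3%) every WT + EtOH score below, and mmu-mir-29b-2 and mmu-mir-29a were 1 each of these. WT + EtOH replicates 2 and 3 had fewer precursors above 0 (233 and 229) than any WT library (260 to 270). Their lowest scores above 0 were higher too (8.17 and 11.3), above the WT scores of mmu-mir-29a. In WT + EtOH replicate 1, with 270 precursors above 0, the lowest score was 1.25, below those scores, and 1 precursor had it. WT replicate 1 had the same lowest score, also in 1 precursor. There mmu-mir-29a was at the second lowest level (4.20), shared with 28 others. In cortex tissue, fewer cells that express a miRNA and less of it per cell cannot be told apart.

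The call for mmu-mir-29a depended on which libraries gave the estimate of the spread. With the 6 libraries of WT and WT + EtOH alone, the difference of -4.56 had an SE of 0.325 and passed (limma, adjusted p = 0.00937), since the 3 values of 0 have no spread and the TLR4-KO groups no longer added theirs. mmu-mir-29b-2 did not pass in that fit (limma, adjusted p = 0.147).

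The genotype comparison in mice that drank water gave no call in the family. Of all precursors 2.55% were called. In TLR4-KO against WT the difference was 4.14 units for mmu-mir-29a (SE 4.15), -2.37 for mmu-mir-29b-2 (SE 5.90) and -0.80 for mmu-mir-29c (SE 8.03), with a limma adjusted p = 1 for each. Without TLR4-KO replicate 3 all 3 differences were above 0. They were then 8.49 for mmu-mir-29a (limma, 0.0393 before adjustment, adjusted p = 0.299), 4.71 for mmu-mir-29b-2 and 9.81 for mmu-mir-29c (limma, 0.0359 before adjustment, adjusted p = 0.286). Thus the sign for mmu-mir-29b-2 rested on 1 library. That for mmu-mir-29c turned without WT replicate 1 as well (1.67). No difference passed the adjusted threshold with or without TLR4-KO replicate 3.

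The effect of ethanol in TLR4-KO mice was likewise not resolved. The difference between TLR4-KO + EtOH and TLR4-KO was -1.71 units for mmu-mir-29a, 0.80 for mmu-mir-29b-2 and 5.29 for mmu-mir-29c (limma adjusted p = 1 for each, with 0.34% of all precursors called). Without TLR4-KO replicate 3 the difference of mmu-mir-29a was -6.06, and those of mmu-mir-29b-2 and mmu-mir-29c turned to -6.27 and -5.32. The 2 groups overlapped for each of the 3 members, and the exact permutation p was 0.8 for mmu-mir-29a and 1 for mmu-mir-29b-2 and mmu-mir-29c.

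Between the 2 groups that drank ethanol, mmu-mir-29b-2 was lower in TLR4-KO + EtOH in all 3 libraries, with a difference of -8.66 units (SE 5.90, 95% interval -22.2 to 4.87). This too did not pass (limma p = 0.179, adjusted p = 1, with 0.509% of all precursors called), and the exact permutation p was 0.1. Here non-overlap was rarer than between WT and WT + EtOH, and 15 of the 324 precursors (4.63%) were lower in every TLR4-KO + EtOH library. WT + EtOH is the shared group of the 2 comparisons in which mmu-mir-29b-2 did not overlap. mmu-mir-29a was 6.98 units higher in TLR4-KO + EtOH (SE 4.15), with 2 libraries above the zeros of WT + EtOH and 1 at 0 as well, and mmu-mir-29c 4.17 units higher (SE 8.03). Without TLR4-KO + EtOH replicate 1 the difference of mmu-mir-29a was 3.63, and without replicate 3 of that group it was 10.5 (limma, 0.0336 before adjustment, adjusted p = 0.733). That of mmu-mir-29c was 0.99 without WT + EtOH replicate 1 and 6.55 without WT + EtOH replicate 3.

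Whether the effect of ethanol differs between the genotypes was tested as a difference of the 2 effects, TLR4-KO less WT. It was -6.29 units for mmu-mir-29b-2 (SE 8.35, 95% interval -25.4 to 12.8), 2.84 for mmu-mir-29a (SE 5.86) and 4.97 for mmu-mir-29c (SE 11.4). None passed (limma adjusted p = 1), and 1.19% of all precursors did. Without TLR4-KO replicate 3 it was -13.4 for mmu-mir-29b-2 (limma, 0.0367 before adjustment, adjusted p = 0.328), and it turned to -1.51 for mmu-mir-29a and -5.64 for mmu-mir-29c.

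The averages over groups gave no call either. With all 12 libraries, ethanol against water over both genotypes gave -3.13 units for mmu-mir-29a, 3.95 for mmu-mir-29b-2 and 2.81 for mmu-mir-29c (limma adjusted p = 1 for each, with 0.34% of all precursors called). Leaving out TLR4-KO replicate 3, these were -5.31 (limma, 0.0507 before adjustment, adjusted p = 0.585), 0.41 and -2.50. TLR4-KO against WT over both treatments gave 5.56 units for mmu-mir-29a (SE 2.93, 95% interval -1.15 to 12.3), the smallest p of the family (limma p = 0.0929, adjusted p = 0.701, with 1.36% of all precursors called), and the exact permutation test within treatments gave p = 0.08. For mmu-mir-29b-2 this average was -5.51 and for mmu-mir-29c 1.69. With that library left out, it was 7.74 for mmu-mir-29a (limma, 0.0107 before adjustment, adjusted p = 0.206), -1.97 for mmu-mir-29b-2 and 6.99 for mmu-mir-29c (limma, 0.0283 before adjustment, adjusted p = 0.331).

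**Figure D3:**
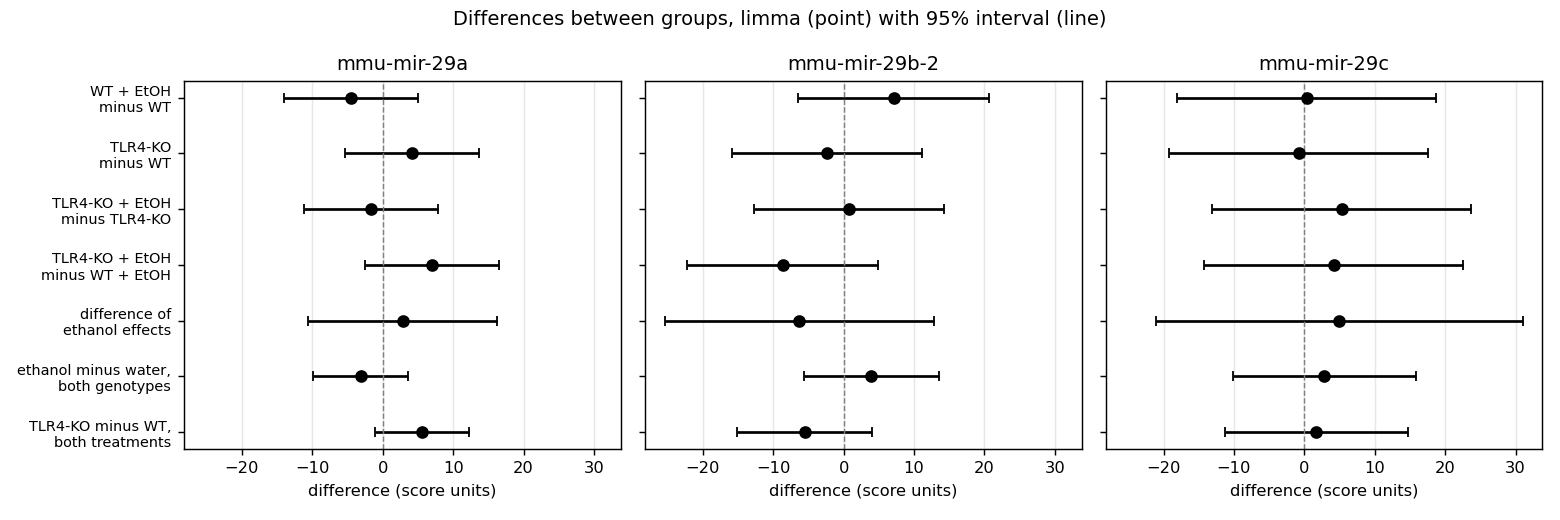
Differences in score units (x axis) of the 3 measured miR-29 precursors for the 7 comparisons (y axis), with limma estimates as points and 95% intervals as lines. All 21 intervals include 0, those of mmu-mir-29c are the widest, and the one whose end lies nearest to 0 is that of mmu-mir-29a for TLR4-KO minus WT over both treatments (-1.15 to 12.3).

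Over the 7 comparisons, 0 of the 4 miR-29 precursors were called by limma with all libraries, and 0 had an unadjusted p under 0.05. Of all precursors, 12.6% had one for WT + EtOH minus WT, 12.2% for TLR4-KO minus WT, 6.96% for TLR4-KO + EtOH minus TLR4-KO, 4.58% for TLR4-KO + EtOH minus WT + EtOH, 12.6% for the difference of the ethanol effects, 8.49% for ethanol minus water and 9.0% for TLR4-KO minus WT over both treatments. Precursors at 0 in all libraries, mmu-mir-29b-1 among them, cannot have such a p. These shares are thus lower than those among the 324 precursors above 0 in any library. The spread between pools was wide for this family with TLR4-KO replicate 3 and near that of other precursors without it. With all libraries the SD within groups, pooled over the 4 groups, was 5.17 score units for mmu-mir-29a, 7.37 for mmu-mir-29b-2 and 10.0 for mmu-mir-29c, against a median of 4.31 over the 324 precursors above 0, and it was larger than that of 64.5%, 85.5% and 96.9% of them. Leaving this library out, the SD was 3.79, 4.37 and 4.28, against a median of 3.94, and larger than that of 47.5%, 55.9% and 55.2%. The SE of WT + EtOH minus WT, in which that library has no value, then fell from 5.90 to 3.49 for mmu-mir-29b-2 (adjusted p = 0.516) and from 8.03 to 3.42 for mmu-mir-29c (adjusted p = 1).

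The scores of mmu-mir-29b-2 and mmu-mir-29c did not run in parallel across the libraries once TLR4-KO replicate 3 was left aside. Over the 12 libraries, which share their normalization, Pearson's r between mmu-mir-29b-2 and mmu-mir-29c, the pair on chromosome 1, was 0.555, and without TLR4-KO replicate 3 it was -0.134 over 11. Between mmu-mir-29a and mmu-mir-29c, which lie on different chromosomes, it was 0.586 over 12 libraries and 0.645 over 11. Between mmu-mir-29a and mmu-mir-29b-2 it was 0.172 and -0.0587. On chromosome 6 the pair could not be compared, as mmu-mir-29b-1 was at 0 throughout. The score of mmu-mir-29b-2 can hold reads of either miR-29b hairpin, so its r does not compare the chromosome 1 hairpins alone. mmu-mir-29a was above 0 in 7 libraries and mostly at the lowest levels there, which limits its r with both others.

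The 2 copies of miR-29b were at odds in the table. Since their 3p arms are identical, the value of 0 for mmu-mir-29b-1 in all 12 libraries beside values above 0 for mmu-mir-29b-2 in 11 was compared with other precursors that share a mature sequence. Among the 445 precursors that matched RefSeq by name there were 29 such pairs, 24 with at least 1 copy above 0. In 3 of the 24, 1 copy was at 0 in all libraries while the other was above 0 in some. One was the miR-29b pair, with the other copy above 0 in 11 libraries. The rest came from 1 family, with mmu-mir-199b at 0 throughout and mmu-mir-199a-1 and mmu-mir-199a-2 each above 0 in 10 libraries. The pattern was thus not particular to miR-29b. In 17 pairs both copies were above 0 in all libraries. The median difference between their copies was 2.78 score units at the middle pair and 38.2 at the largest, that of miR-128. It was 29.4 for the miR-24 precursors, above 0 in 5 and in 12 libraries, and 17.6 for the miR-29b pair. The score of mmu-mir-29b-2 can thus hold reads of either hairpin, and how reads shared by both were assigned is not given in the sources used here.

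The precursors whose pattern was most like that of each member were sought among the 190 that were above 0 in all libraries. For mmu-mir-29c they were mmu-mir-219b (r = 0.862 over 12 libraries), encoded opposite to a miR-219 hairpin of the oligodendrocyte lineage, mmu-mir-345 (r = 0.784) and mmu-mir-425 (r = 0.684). Without TLR4-KO replicate 3, in which each of these 3 had its lowest score, r was 0.786, 0.355 and 0.696. For mmu-mir-29b-2 they were mmu-mir-345 (r = 0.701), mmu-mir-770 (r = 0.595) and mmu-mir-370 (r = 0.509), the last 2 from the imprinted Dlk1-Dio3 region. Without that library r was 0.265, 0.155 and 0.461. mmu-mir-29a, above 0 in 7 libraries, was left out of this search. These correlations describe 12 libraries that share 1 normalization and carry no test.

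Neuronal and glial miRNAs of the same libraries were counted beside the family. Of 18 precursors of neuron-enriched miRNAs, among them the miR-124, miR-9 and miR-128 precursors, all were above 0 in at least 1 library, and of 12 glial and inflammatory ones, among them miR-219, miR-338, miR-146a and miR-21a, 9 were. As for miR-29, 0 of the 18 and 0 of the 12 were called by limma in any of the 7 comparisons. At an unadjusted p under 0.05, 6 of the 18 neuron-enriched and 0 of the 12 glial precursors differed between WT + EtOH and WT, and 5 and 2 between TLR4-KO and WT. Over all 589 precursors, of which 324 were above 0 in any library, 74 (12.6%) and 72 (12.2%) did. Precursors at 0 in all libraries could not, so these shares are lower than those among the 324. Between TLR4-KO + EtOH and TLR4-KO the counts were 0 and 3, with 6.96% of all precursors. The 18 are not all separate miRNAs, since the miR-9 precursors, and likewise those of miR-129, share mature sequences and had similar scores. The median difference between WT + EtOH and WT was 2.45 units for the neuron-enriched list, 0 for the glial list and 0 over the precursors above 0 in any library, and for the 3 measured miR-29 precursors it was 0.32.

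Markers of the tissue were present in every library. Of 8 neuronal marker precursors 7 were above 0 in all 12 libraries, and the mean of their scores ranged from 45.1 to 51.4. The liver miRNA mmu-mir-122 and both muscle precursors of the table were listed at 0 throughout. The mean of 3 oligodendrocyte precursors was lowest in the TLR4-KO libraries (9.74 to 12.2, against 13.5 to 22.6 elsewhere), and 1 of these 3 was above 0 in all libraries. That of 3 erythroid precursors was 50.4 to 54.4 in WT and 42.3 to 50.0 elsewhere, 2 of them above 0 in all libraries. Of these, mmu-mir-451a, a miRNA of red blood cells, was called lower in WT + EtOH than in WT (difference -14.6, limma adjusted p = 0.0346), in TLR4-KO than in WT (-17.6, adjusted p = 0.00948) and in TLR4-KO over both treatments (-11.9, adjusted p = 0.0204). The median difference of the 3 erythroid precursors in these comparisons was -0.38, -4.13 and -4.73. Of 4 microglia and leukocyte precursors 3 were above 0 in some library, with mmu-mir-223 at 0 throughout and a mean of 26.2 to 32.4. Of these, mmu-mir-150, a miRNA of mature lymphocytes, was called higher in WT + EtOH than in WT (7.41, limma adjusted p = 0.0444) and in TLR4-KO than in WT (9.28, adjusted p = 0.00958). The median difference of the 3 in these comparisons was 0 and 7.32. In TLR4-KO over both treatments mmu-mir-142a was lower (-10.4, limma, 0.0450 before adjustment, adjusted p = 0.553) and mmu-mir-150 higher (4.07, adjusted p = 0.126). No other marker precursor was called in the 7 comparisons. The means were 64.1 to 67.9 for 3 vascular precursors and 28.3 to 35.4 for 5 of choroid plexus and ciliated cells. Between WT + EtOH and WT, 3 of 3 vascular precursors had an unadjusted p under 0.05, with mmu-mir-143 (-6.45) and mmu-mir-126a (-6.58) lower and mmu-mir-145a (8.09) higher, and 0 were called. The part of these cells in the miR-29 scores was not tested.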

How the data were processed

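Cortex RNA was isolated with a miRNeasy kit, and small RNA libraries (TruSeq) were sequenced on a HiSeq. Per the labels and the study's methods, the authors used FastQC 0.11.6, cutadapt, Bowtie2 2.2.5 and TopHat, with GRCm38 as the genome build in the submitters' processing notes, then filtered alignments and counted reads per precursor. The miRBase release is not given in the sources used here. The deposited values are a score, normalized between libraries by the authors, with 0 kept at 0. No count test was run, and read depth per library is not in the table.

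Groups follow the sample labels, 3 libraries each. The deposited scores were fitted with limma 3.58.1 (R 4.3.3, eBayes with its default settings), using 1 mean per group over 12 libraries and no filter. The 7 comparisons were each adjusted over 589 precursors (Benjamini-Hochberg, threshold 0.05). The moderated variance had 8.31 degrees of freedom, 0.308 of them from the prior. The procedure was tested on simulated data. Exact two-sided permutation tests used scipy 1.17.1 in Python 3.11.15. For the likeness search, members had to be above 0 in at least 8 libraries, and the 3 precursors with the highest Pearson's r were named. Mature sequences were copied from RefSeq, and positions come from RefSeq and GENCODE M21, both on GRCm38.

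The members and lists were chosen with earlier results of these data known. Pools are separate mice, but the labels number replicates without saying what a number shares. Alternatives were quantile normalization, centring on the miR-181a and miR-181b precursors, ranks, a filter (above 0 in at least 3 libraries), 0 as missing, robust or trended eBayes, the replicate number as a block, only the 2 groups compared, and each library left out. The step of a value within its library was added after the data had been seen.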

Additional observations from a re-analysis of the deposited data

How the results depend on the processing

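Calls in the family were 0 in all comparisons under each alternative run, except that mmu-mir-29a was called between WT + EtOH and WT with only the 2 groups compared (1 call in place of 0, difference -4.56). The numbers below compare calls among all 589 precursors. For WT + EtOH minus WT (10 calls) there were 21 with the filter and 51 with steps within libraries. For TLR4-KO minus WT (15) there were 31 with the filter and with 0 as missing, 24 with the replicate block and 59 with steps. For TLR4-KO + EtOH minus TLR4-KO (2) there were 0 with quantile normalization, centring, 0 as missing and only the 2 groups. For TLR4-KO + EtOH minus WT + EtOH (3) there was 1 with quantile normalization and with 0 as missing, and 0 with only the 2 groups. For the difference of the ethanol effects (7) there were 12 with centring, 13 with the filter, 3 with the block and 43 with steps. For ethanol minus water (2) there were 0 with centring, the filter and 0 as missing, 8 with ranks and 17 with steps. For TLR4-KO minus WT over both treatments (8) there were 5 with quantile normalization and 0 as missing, 4 with centring, 13 with ranks and 23 with steps. With 1 library left out the calls ran, in this order, from 4 to 18, 11 to 22, 0 to 4, 0 to 3, 2 to 15, 2 to 8 and 2 to 12. With steps, 50 of the 51 calls for WT + EtOH minus WT were lower (4 of 10 with scores), all 59 for TLR4-KO minus WT (6 of 15), 22 of 23 for TLR4-KO minus WT over both treatments (5 of 8) and 15 of 17 for ethanol minus water (1 of 2), and 41 of 43 for the difference of the ethanol effects were higher (3 of 7). With centring, 11 of 21 were lower for TLR4-KO minus WT, 7 of 15 for WT + EtOH minus WT, 9 of 12 for the difference and 4 of 4 for TLR4-KO minus WT over both treatments, and with ranks 6 of 11, 2 of 7 and 10 of 13 for WT + EtOH minus WT, the difference and that average. A step cannot exceed the number of distinct levels above 0 in its library. That number was 160 to 164 in WT and 126 to 153 in the other groups. Steps are therefore not on 1 scale, and their directions cannot be read as changes in miRNA level. The causes were not tested.

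Signs turned in the following cases, none of them called. For TLR4-KO minus WT, mmu-mir-29a was -26.8 ranks, and with 0 as missing mmu-mir-29b-2 was 4.71 and mmu-mir-29c 9.81. For TLR4-KO + EtOH minus TLR4-KO, mmu-mir-29b-2 was -0.13 with centring, -6.27 with 0 as missing and -1.33 steps, mmu-mir-29c -5.32 with 0 as missing, and mmu-mir-29a 0.33 steps. The difference of the ethanol effects was -0.15 for mmu-mir-29a with quantile normalization, 23.8 ranks for mmu-mir-29b-2 and -5.64 for mmu-mir-29c with 0 as missing. For mmu-mir-29c, WT + EtOH minus WT was -3.67 steps, ethanol minus water -2.50 with 0 as missing and -1.17 steps, and TLR4-KO minus WT over both treatments -17.0 ranks. With 0 as missing, the contrasts of mmu-mir-29a that use WT + EtOH could not be estimated.

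With 1 library left out, mmu-mir-29c ran from -2.05 to 3.50 for WT + EtOH minus WT (below 0 without WT replicate 3 or WT + EtOH replicate 2 or 3), from -7.24 to 9.81 for TLR4-KO minus WT (above 0 without TLR4-KO replicate 3 or WT replicate 1), from -5.32 to 11.7 for TLR4-KO + EtOH minus TLR4-KO, from -5.64 to 11.4 for the difference of the ethanol effects, from -2.50 to 6.03 for ethanol minus water (these 3 turned without TLR4-KO replicate 3) and from -1.53 to 6.99 for TLR4-KO minus WT over both treatments (below 0 without TLR4-KO replicate 1 or 2). mmu-mir-29b-2 ran from -9.11 to 4.71 for TLR4-KO minus WT, from -6.27 to 7.55 for TLR4-KO + EtOH minus TLR4-KO (below 0 without TLR4-KO replicate 3 or TLR4-KO + EtOH replicate 1) and from -13.4 to 0.46 for the difference of the effects (above 0 without TLR4-KO replicate 2). mmu-mir-29a ran from -6.06 to 1.78 for TLR4-KO + EtOH minus TLR4-KO (above 0 without TLR4-KO replicate 1 or TLR4-KO + EtOH replicate 3) and from -1.51 to 6.33 for the difference of the effects (below 0 without TLR4-KO replicate 3 or TLR4-KO + EtOH replicate 1). Without a turn of sign, mmu-mir-29a ran from 1.08 (without TLR4-KO replicate 1) to 8.49 (without TLR4-KO replicate 3) for TLR4-KO minus WT and from -5.31 (without TLR4-KO replicate 3) to -1.39 (without TLR4-KO + EtOH replicate 3) for ethanol minus water, and mmu-mir-29b-2 from 0.41 (without TLR4-KO replicate 3) to 7.32 (without TLR4-KO replicate 2) for ethanol minus water and from -8.89 (without TLR4-KO replicate 2) to -1.97 (without TLR4-KO replicate 3) for TLR4-KO minus WT over both treatments.

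The replicate numbers were not shown to pair the libraries. Over the 18 pairs of same-numbered libraries, the correlation of deviations from the group means ran from -0.0776 to 0.240 (median 0.0577), above 0.1 in 4. With the number as a block the 0 calls of the family stayed at 0, and mmu-mir-29b-2 still differed by 7.10 units between WT + EtOH and WT (limma, adjusted p = 0.942).

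With 3 pools per group an exact test of 2 groups cannot go below p = 0.1. The score hides depth, and a 0 can stand for any level too low for detection in its library, where the number of precursors detected varied. Identical 3p arms leave the split between the miR-29b hairpins unknown.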
